A study of Mus musculus with 2 samples.

Results

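The 8 genes described here belong to the major histocompatibility complex (MHC) class II pathway and were followed through the cells of B16F10 melanomas grown in mice that kept or lost host Atf4. They are H2-Aa, H2-Ab1, H2-Eb1, H2-DMa, H2-DMb1, H2-DMb2, Cd74 and Ciita. They were chosen by name, not by their values, from the 31053 genes in the count matrices. Class II molecules show peptides from endocytosed material to CD4 T cells. H2-Aa pairs with H2-Ab1 to form I-A, H2-Eb1 is the beta chain of I-E, Cd74 is the invariant chain that guides both through the cell, and H2-DMa with H2-DMb1 or H2-DMb2 forms the editor that loads the peptide. Ciita is the master coactivator of all of them. Dendritic cells hold the pathway on constitutively, whereas macrophages, fibroblasts and endothelial cells are known to raise it after interferon gamma.

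B16F10, a melanoma line of C57BL/6 origin, was grown under the skin of hosts that were either Atf4 WT/WT or, after deletion, Atf4 Δ/Δ, and small tumours were taken for single-cell RNA sequencing. Both hosts carried Rosa26::CreERT2, a tamoxifen-driven Cre active in all tissues, and both received tamoxifen. Only the Δ/Δ hosts had floxed Atf4 alleles to lose, and the melanoma cells kept their own Atf4 in either host. The labels give an age of 11 weeks, and each genotype is 1 library that pools 2 tumours. With 1 library per genotype no difference between the hosts can be tested, so intervals, where given, are exact 95% intervals that cover counting error only, not the spread between tumours or between cells.

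A total of 3861 cells from WT/WT and 3557 from Δ/Δ hosts were kept, with medians of 3920 and 6279 UMIs (unique molecular identifiers, each a counted RNA molecule). The libraries had 10 barcodes in common, 1 of them among the kept cells. Marker genes, none of them class II, placed 3276 and 2897 cells in classes, and the remaining 585 and 660 cells, which held 22.0% and 20.3% of class II UMIs, were left ungated. Markers held out of the gates were summed as a check: fibroblast-like cells had 3846 CPM (UMIs per 1000000 UMIs of the class) of theirs against 22.8 in other gated cells, and macrophage-like cells 5287 against 82.8. In dendritic-like cells 5 of 7 check markers were higher than elsewhere, and Snx22 and Cadm1 were at 0. Atf4 UMIs were fewer in the Δ/Δ host cells, at 42.1 CPM in macrophage-like cells (32.4 to 53.9) against 174 (156 to 193), and at 43.9 (31.0 to 60.2) against 259 (223 to 299) in fibroblast-like cells. Melanoma-like cells had 208 (201 to 214) and 225 (218 to 232). The labels state pooled males and females for both libraries. In the WT/WT library no gated host cell held a UMI of a Y-linked gene, however, whereas the Δ/Δ library held 234, so that host sex and genotype are mixed in every comparison between the hosts.

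Class II promoters are known to share an X box, bound by the RFX complex, followed by a Y box, bound by NF-Y, which together recruit Ciita. Promoters in the RefSeq table (GRCm38.p6) were matched for 5 members, H2-DMa with 2 entries, and not for H2-Ab1, Cd74 and Ciita. The sequences show which members carry these letters. Each line holds the 130 bases before the start of the gene's RefSeq entry, 5′ to 3′ on the gene's strand. Capitals mark the X1 core AACNGATG, the Y box GATTGG (or CCAATC on the opposite strand) and the palindrome TGACGTCA of CRE-type X2 boxes. The H2-Eb1 stretch is chr17:34305737-34305866 (plus strand), H2-DMb1 is chr17:34153061-34153190 (plus), H2-DMb2 is chr17:34145119-34145248 (plus) and H2-Aa is chr17:34287824-34287953 (minus).
H2-Eb1: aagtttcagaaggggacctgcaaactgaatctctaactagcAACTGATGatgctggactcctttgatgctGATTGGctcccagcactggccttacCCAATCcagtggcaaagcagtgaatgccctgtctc
H2-DMb1: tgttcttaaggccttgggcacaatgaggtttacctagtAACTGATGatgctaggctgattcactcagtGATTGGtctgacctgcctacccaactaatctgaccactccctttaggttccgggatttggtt
H2-DMb2: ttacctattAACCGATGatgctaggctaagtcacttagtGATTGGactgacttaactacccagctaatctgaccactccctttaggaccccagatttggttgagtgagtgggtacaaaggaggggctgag
H2-Aa: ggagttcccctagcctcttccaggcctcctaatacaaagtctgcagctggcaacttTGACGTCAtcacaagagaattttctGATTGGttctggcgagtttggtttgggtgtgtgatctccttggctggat

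In H2-Eb1 the X1 core ended 21 bases before the first Y box, and in H2-DMb1 and H2-DMb2 22 bases before it. Thus these 3 beta chains shared their spacing to within a base. H2-DMb1 and H2-DMb2 are near copies, and H2-Ab1, the beta chain of I-A, had no matched window. The H2-Aa stretch held the CRE-type letters and a Y box but no X1 core. Neither of the H2-DMa windows held an X1 core. Across all 32851 promoter windows, searched on both strands, 2.32% held the X1 core, 16.1% the Y box and 1.79% the CRE-type letters. An X1 core followed within 30 bases by a Y box on the gene's strand was found in 6 windows, those of H2-Eb1, H2-Eb2, H2-DMb1, H2-DMb2, BC051142 and G3bp2. The motif letters were settled after the members' windows had been read, so the count is a description.

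The members lie close together apart from Cd74 and Ciita. In GENCODE vM21 (GRCm38), H2-DMa (ENSMUSG00000037649, chr17:34119541-34139101), H2-DMb2 (ENSMUSG00000037548, chr17:34143307-34151555), H2-DMb1 (ENSMUSG00000079547, chr17:34153072-34160230), H2-Ab1 (ENSMUSG00000073421, chr17:34257689-34269419) and H2-Eb1 (ENSMUSG00000060586, chr17:34305867-34316674) are on the plus strand, and H2-Aa (ENSMUSG00000036594, chr17:34282744-34287823) is on the minus strand. All are protein coding. For H2-DMa, H2-DMb1 and H2-DMb2 these starts lie upstream of the RefSeq starts on which the promoter windows were set. Those windows therefore lie wholly or partly inside the GENCODE genes. H2-Eb1 overlaps the antisense gene Gm20513. H2-DMa overlaps Brd2 on the opposite strand and a further antisense gene on its own strand. H2-DMb1 and H2-DMb2 are near copies. Of the 91-base windows in the last 500 bases of H2-DMb1 transcripts, 15.6% also occurred in H2-DMb2, so some reads of this pair may not be told apart, while 1.20% of the H2-DMb2 windows occurred in Zw10 and the ends of H2-Aa, H2-Ab1, H2-Eb1, H2-DMa, Cd74 and Ciita had no window in common with another gene.

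In the WT/WT library the level of each of the 8 members descended in the order dendritic, other myeloid, monocyte-like and macrophage-like cells. Summed over the members, dendritic-like cells had 37507 class II CPM (36321 to 38721) in WT/WT and 31560 (29300 to 33949) in Δ/Δ tumours. Other myeloid-like cells, which carried general myeloid markers but met neither the monocyte nor the macrophage gate cleanly, had 14831 (14548 to 15117) and 11467 (11128 to 11813). Monocyte-like cells had 6154 (5857 to 6462) and 7552 (7143 to 7978), and macrophage-like cells 2687 (2615 to 2761) and 1653 (1589 to 1720). The sums of T/NK-like cells, 5704 and 8907, did not separate from those of monocyte-like cells by their intervals. They came from few cells: 1 of 23 WT/WT cells held 134 of 150 UMIs, and 1 of 11 Δ/Δ cells held 70 of 122. With 1 more marker required the sums were 1529 CPM in 8 and 348 CPM in 6 cells. Plasmacytoid dendritic-like cells had 3237 (2509 to 4111) from 19 WT/WT cells, and only 3 such cells were found in the Δ/Δ library. That interval overlapped the one of macrophage-like cells. Held-out macrophage markers stood at 1401 CPM in the WT/WT plasmacytoid dendritic-like cells. The class's own held-out markers stood at 1332 CPM over both libraries, so the gate did not part these cells cleanly from macrophages.

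Outside the blood lineage the level was lower by orders of magnitude. Fibroblast-like cells had 62.2 class II CPM (45.2 to 83.5) in WT/WT and 73.9 (56.9 to 94.3) in Δ/Δ tumours, melanoma-like cells 19.8 (17.8 to 21.9) and 14.0 (12.4 to 15.8), and endothelial-like cells 14.0 (2.88 to 40.8) and 25.7 (3.11 to 92.8). The endothelial values rested on 3 and 2 UMIs, and their intervals overlapped those of melanoma-like cells in either library.

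**Figure D1:**
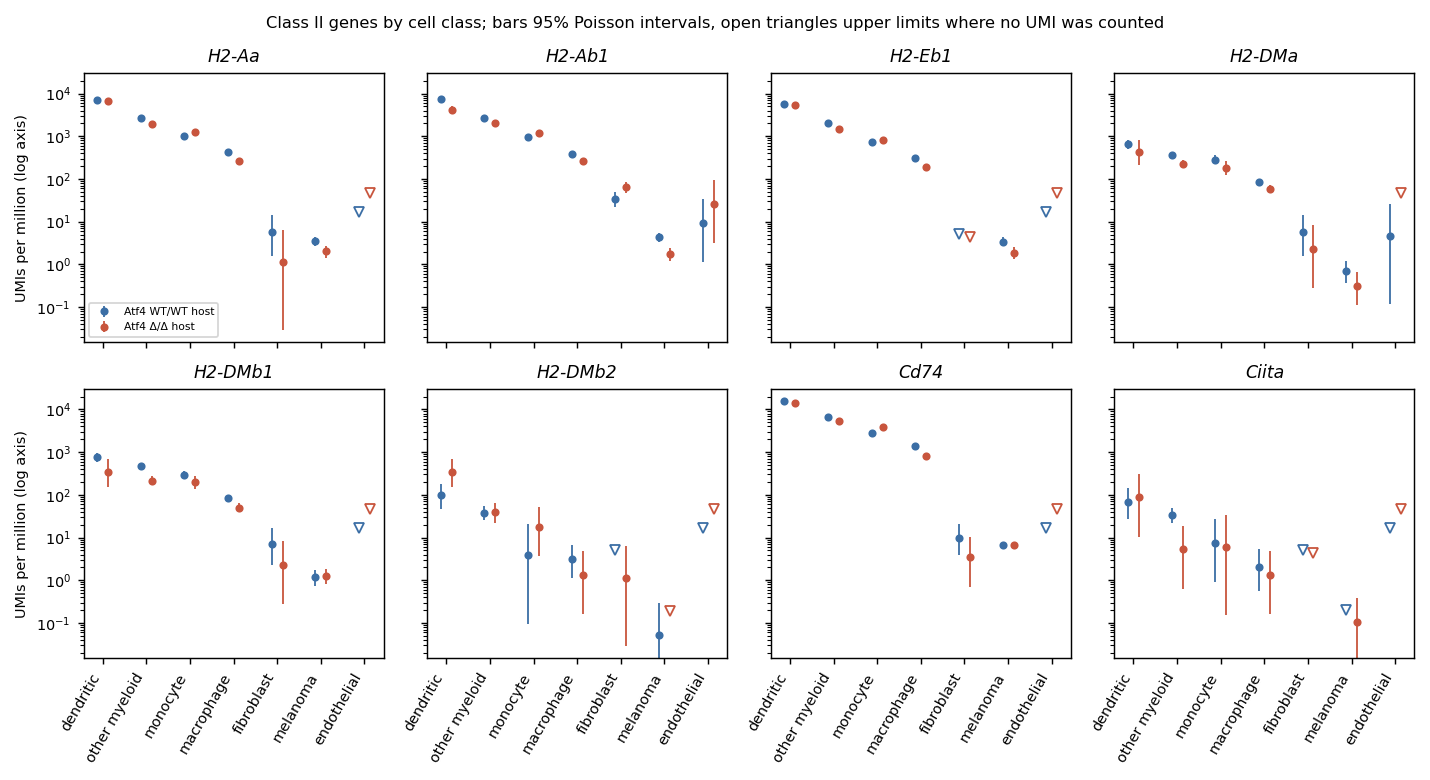
Level of each member in CPM (vertical log axis) in 7 cell classes of the 2 libraries; points are library sums, bars are 95% Poisson intervals, and open triangles mark the upper limit where no UMI was counted. The members descend from dendritic- to macrophage-like cells, and counts were not scaled to transcript length, so heights compare classes and libraries rather than members.

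Among single members, H2-Aa went from 7099 CPM in WT/WT dendritic-like cells (6819 in Δ/Δ) through 2640 (1953) in other myeloid-, 1001 (1267) in monocyte- and 417 (265) in macrophage-like cells to 3.52 (2.02) in melanoma-like cells. Cd74 descended from 15477 (13857) through 6507 (5456), 2867 (3865) and 1392 (820) to 6.66 (6.69) in the same classes. The chaperone subunit H2-DMa fell from 644 (437) to 85.8 (58.2) between dendritic- and macrophage-like cells. H2-Eb1 went from 5721 (5464) through 2064 (1519), 730.0 (811) and 314 (191) to 3.41 (1.87) in melanoma-like cells. Thus the order of the myeloid classes in the WT/WT library was shared by chains, chaperone and invariant chain. The counts were not scaled to transcript length, so levels are read across classes, not between genes. H2-DMb2 had few UMIs, at 99.1 CPM (10 UMIs) in WT/WT and 349.7 (8 UMIs) in Δ/Δ dendritic-like cells and at 38.2 and 39.7 in other myeloid-like cells. Cd74 lies on chromosome 18 at 60803848 to 60812652 and holds Mir5107 within it, and Ciita at chr16:10480059-10528418 overlaps Dexi on the opposite strand. Ciita was scarce everywhere: 9 UMIs in dendritic-like, 26 in other myeloid-, 3 in monocyte- and 6 in macrophage-like cells, both libraries together. In other myeloid-like cells its level was 33.9 CPM in WT/WT and 5.29 in Δ/Δ tumours, from 24 and 2 UMIs. No Ciita UMI was found in fibroblast- or endothelial-like cells, where a floor of 3 counts is 4.24 CPM in WT/WT fibroblast-like cells and 3.46 in Δ/Δ cells, and the upper 95% Poisson limits of a count of 0 are 5.22 and 4.26.

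The share of class II UMIs that came from H2-Ab1 was much higher in fibroblast-like cells than in any myeloid class or in melanoma-like cells. H2-Ab1 gave 19.2% of class II UMIs in dendritic-like cells (95% Clopper-Pearson 18.1 to 20.4), 18.1% (17.5 to 18.7) in other myeloid-, 15.8% (14.5 to 17.2) in monocyte-, 15.03% (14.2 to 15.8) in macrophage- and 17.8% (14.9 to 21.0) in melanoma-like cells. In fibroblast-like cells it gave 73.1% (63.8 to 81.2). Endothelial-like cells held only 5 class II UMIs, 4 of them of H2-Ab1 (28.4% to 99.5%). These are shares of UMIs, not of molecules per length. The Cd74 share moved the other way within the myeloid classes, from 41.7% (40.2 to 43.1) in dendritic- to 51.1% (50.0 to 52.2) in macrophage-like cells. H2-DMa and H2-DMb1 made up 1.66% and 1.89% in dendritic-like cells and 3.30% and 3.09% in macrophage-like cells.

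**Figure D2:**
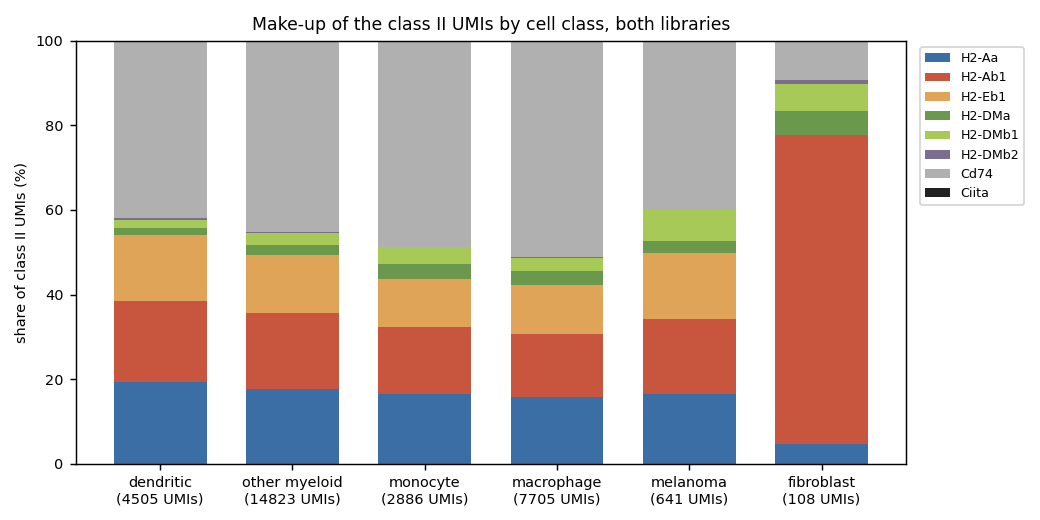
Share of all class II UMIs (vertical axis, %) that each member gave in 6 cell classes, both libraries summed, with the number of UMIs under each bar. H2-Ab1 gave 73.1% in fibroblast-like cells and 15.03% to 19.2% in the others.

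The dendritic-like cells were not uniform. Cells with Cd209a, a marker of type 2 conventional dendritic cells (23 cells, 22 of them WT/WT), had 47652 class II CPM (45512 to 49867). Those with Xcr1 or Clec9a, markers of the cross-presenting type 1 cells (8 cells), had 39366 (36539 to 42354). Cells with Ccr7 and either Fscn1 or Ccl22, genes of mature migratory dendritic cells (26 cells), had 23884 (22486 to 25345). The members did not descend equally: H2-DMb1 stood at 1254 CPM in Cd209a cells and 43.9 (5.31 to 158) in Ccr7 cells, from 49 and 2 UMIs, and H2-Ab1 at 9878 and 3070, whereas H2-Eb1 stood at 6807 and 4737. These subsets were drawn from the gate markers after the gene levels were seen.

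The mature subset also differed in size between the hosts, with 16 of 56 WT/WT and 10 of 15 Δ/Δ dendritic-like cells. Over all dendritic-like cells H2-Ab1 was lower in Δ/Δ tumours by 0.86 on the log2 scale (interval −1.18 to −0.56), and the sum by 0.25 (−0.37 to −0.13). Within the Ccr7 cells the H2-Ab1 difference was −0.48 (−1.05 to 0.07) and that of the sum −0.31 (−0.50 to −0.12). Among the other dendritic-like cells H2-Ab1 differed by −0.25 (−0.66 to 0.14) and the sum was higher in Δ/Δ cells, by 0.37 (0.21 to 0.52), but only 5 Δ/Δ cells were behind it.

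Within the monocyte-, macrophage- and other myeloid-like cells, class II levels fell as the number of macrophage markers rose. The cells were ordered by how many of 8 macrophage markers, among them C1qa, C1qb, C1qc and Adgre1, had a UMI. WT/WT cells with 0 markers had 22304 class II CPM (21557 to 23070), those with 4 had 8725 (8306 to 9161), and those with all 8 had 1291 (1203 to 1384). The Δ/Δ cells went from 19972 (18526 to 21502) through 7510 (7024 to 8020) to 568 (509 to 632). The hosts were nearer each other at the low end than at the high end. The log2 difference of Δ/Δ from WT/WT lay between −0.22 and −0.04 for 0 to 4 markers, at 0.25 (0.15 to 0.36) for 5, at −0.35 (−0.47 to −0.24) for 6, at −0.98 (−1.12 to −0.84) for 7 and at −1.18 (−1.37 to −0.998) for 8. Median UMIs per cell with 8 markers were 3393 and 3200, so depth was near equal between the hosts there. With 0 markers the medians were 1270.5 and 1034, so depth rose along the ordering too, and its part was not tested. This ordering was chosen after the class II sums were known.

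**Figure D3:**
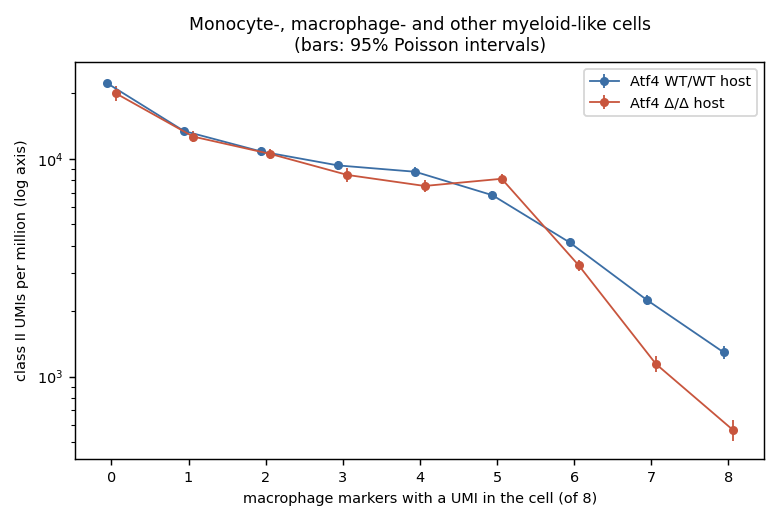
Class II CPM (vertical log axis) in monocyte-, macrophage- and other myeloid-like cells against the number of 8 macrophage markers with a UMI; points are library sums and bars 95% Poisson intervals. The log2 difference stays between −0.22 and 0.25 up to 5 markers and is −0.98 and −1.18 at 7 and 8.

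Cells with 1 dendritic marker among the same myeloid cells had 17077 class II CPM (124 cells) in WT/WT and 7572 (31 cells) in Δ/Δ tumours, against 4672 and 3814 in cells with 0. The part of dendritic cells in the myeloid values was not tested further.

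The myeloid states, named by the genes that lead them, were called among macrophage-, monocyte- and other myeloid-like cells together. Their class II levels spanned 1007 to 8490 CPM in WT/WT and 508 to 8737 in Δ/Δ tumours. Each state asked for UMIs of at least 3 of its markers, a lead gene among them, without a tie between states. Resident cells, led by Lyve1 or Cd163, had 1007 class II CPM (903 to 1119) in WT/WT and 508 (456 to 563) in Δ/Δ tumours. The Vcam1 Fcrls C1q-high cells had 1161 (1061 to 1269) and 527 (429 to 640). The Arg1 hypoxic cells had 5214 (4898 to 5545) and 3799 (3519 to 4095), and the interferon-response cells, led by Ifit genes, had 8490 (7850 to 9168) and 4783 (4281 to 5328). The Il1b Cxcl2 inflammatory cells had 7890 (7668 to 8117) and 8737 (8411 to 9073), and were at the gates used the only state with a higher sum in Δ/Δ tumours. Macrophage-like cells were 114 of 332 WT/WT and 64 of 196 Δ/Δ inflammatory cells. They were 13 of 28 and 18 of 33 interferon-response cells, but 106 of 107 and 202 of 213 resident cells. On the log2 scale the differences were −0.99 (−1.21 to −0.77) for resident, −1.14 (−1.46 to −0.83) for Vcam1 Fcrls, −0.46 (−0.60 to −0.32) for Arg1, −0.83 (−1.02 to −0.63) for interferon-response and 0.15 (0.079 to 0.22) for inflammatory cells. The signs of the last pair turned among cells that held Xist but nothing Y-linked. There inflammatory cells were at −1.28 (−1.52 to −1.04; 186 WT/WT and 28 Δ/Δ cells) and interferon-response cells at 1.55 (1.23 to 1.85; 23 and 3 cells).

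Single members did not always follow their state's sum. In inflammatory cells, where Cd74 was at 0.21 (0.11 to 0.31) and H2-Ab1 at 0.32 (0.14 to 0.49), the editor chain H2-DMb1 was lower in Δ/Δ cells, 155 against 265 CPM (−0.77, −1.27 to −0.30). In interferon-response cells H2-DMa stood at 365 CPM in WT/WT and 101 in Δ/Δ cells (−1.85, −3.29 to −0.62). In resident cells H2-Ab1 stood at 169.7 and 65.4 CPM (−1.38, −1.97 to −0.79) and H2-Aa at 152 and 69.7 (−1.13, −1.72 to −0.54). The resident and Vcam1 Fcrls cells held no Ciita UMI in either library.

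Per cell, class II was spread unevenly. With every cell thinned to 1000 UMIs, 84.6% (71.9 to 93.1) of WT/WT dendritic-like cells held at least 10 class II UMIs, 49.2% (43.8 to 54.5) of other myeloid-, 24.0% (17.5 to 31.6) of monocyte- and 12.4% (10.0 to 15.2) of macrophage-like cells. In Δ/Δ tumours the shares were 83.3% (51.6 to 97.9), 40.5% (33.7 to 47.5), 34.5% (24.6 to 45.4) and 9.90% (7.49 to 12.8). Any class II UMI was found in 48.1% (44.3 to 51.9) of WT/WT and 30.7% (26.7 to 34.8) of Δ/Δ macrophage-like cells, and in 2.59% (1.86 to 3.49) and 1.37% (0.87 to 2.05) of melanoma-like cells, whose expected free RNA share was lower than that of macrophage-like cells. That share was 6.92% of UMIs in WT/WT and 6.95% in Δ/Δ macrophage-like cells against 1.61% and 2.32% in melanoma-like cells, and it gave an expected class II level of 76.5 and 32.0 CPM in macrophage-like cells. Without thinning, when macrophage-like cells had medians of 2567 and 2592 UMIs, 64.1% and 45.9% of them had a class II UMI. The 69 WT/WT macrophage-like cells with the most class II UMIs held 60.2% of the class total, and the top 54 Δ/Δ cells 76.3%.

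At 2000 UMIs per cell the share of macrophage-like cells with at least 10 class II UMIs was 14.0% (11.1 to 17.4) of 493 WT/WT and 4.42% (2.59 to 6.98) of 385 Δ/Δ cells. This left out 197 and 153 shallower cells. The share is a range on a continuous scale, and 24 and 8 cells lay between 8 and 11 UMIs. The hosts were further apart here than at 1000 UMIs, where 14 and 13 cells were left out. In all macrophage-like cells without thinning the shares were 20.9% (17.9 to 24.1) and 13.6% (10.8 to 16.8).

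In the macrophage-like cells 6 members had at least 20 UMIs, and all 6 were lower in Δ/Δ tumours, with intervals that left out 0. H2-Ab1 went from 390 to 267 CPM, H2-Eb1 from 314 to 191 and H2-DMb1 from 83.7 to 50.1, beside the values of H2-Aa, H2-DMa and Cd74 above. Cd74 was lower by 0.76 on the log2 scale (−0.86 to −0.67), H2-DMb1 by 0.74 (−1.15 to −0.34), H2-Eb1 by 0.72 (−0.93 to −0.52), H2-Aa by 0.65 (−0.83 to −0.48), H2-DMa by 0.56 (−0.95 to −0.18) and H2-Ab1 by 0.55 (−0.73 to −0.37). The sum was lower by 0.70 (−0.77 to −0.63). None of the 6 passed 2-fold, a size reached downwards by 2.70% of the 8569 genes with at least 20 UMIs and upwards by 2.98%. The median over those genes was −0.004 against −0.69 over the 6 members. Of the 8569 genes 4317 were below 0. The share of them with an interval that left out 0 is not given here, so the 6 intervals have no base rate.

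The states among the macrophage-like cells also differed in size between the hosts. Resident cells, the state with the lowest WT/WT sum, made up 106 of the WT/WT (15.4%) and 202 of the Δ/Δ cells (37.5%), Vcam1 Fcrls cells 127 and 71, inflammatory cells 114 and 64, and cells in no state 287 and 145. Within these states of macrophage-like cells the log2 difference was −1.22 (−1.45 to −0.99) for resident, −1.96 (−2.38 to −1.56) for Vcam1 Fcrls and 0.61 (0.49 to 0.72) for inflammatory cells, and −0.37 (−0.48 to −0.25) for cells in no state. The split by state was made after the sums were known, and the part of the state sizes in the summed difference was not tested.

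In other myeloid-like cells the sum was lower in Δ/Δ tumours by 0.37 (−0.42 to −0.32). These cells differed in makeup, with 1537 CPM of the held-out macrophage markers in WT/WT and 3871 in Δ/Δ cells. Cells with few markers of either kind, the highest in class II, were 232 of 437 WT/WT and 111 of 266 Δ/Δ cells and differed by −0.25 (−0.31 to −0.18). Cells with monocyte and macrophage markers differed by −0.27 (−0.40 to −0.14), and cells with some macrophage markers by −0.066 (−0.17 to 0.039). Each was nearer 0 than the sum over all 3 kinds. Of 8 members 2 passed 2-fold downwards, H2-DMb1 with 481 CPM against 217 at −1.15 (−1.51 to −0.80) and Ciita at −2.68 (−5.81 to −0.67), where 5.55% of 5443 genes did. In monocyte-like cells the sum was higher by 0.30 (0.19 to 0.40), carried by Cd74 at 0.43 (0.28 to 0.58), H2-Aa at 0.34 (0.07 to 0.60) and H2-Ab1 at 0.31 (0.04 to 0.59). With 1 more monocyte marker required the sum differed by −0.085 (−0.29 to 0.12), so its direction rests on the gate. Held-out monocyte markers were at 898 CPM in WT/WT and 562 in Δ/Δ monocyte-like cells and held-out macrophage markers at 623 and 1042, and their part in the difference was not tested. The editor chains pointed the other way at the gate used, H2-DMa with 283 CPM against 183 at −0.62 (−1.28 to −0.001) and H2-DMb1 at −0.55 (−1.18 to 0.05). None of 6 monocyte members passed 2-fold downwards, against 5.94% of 2895 genes. In dendritic-like cells 1 of 6, H2-DMb1 at −1.13 (−2.39 to −0.08), did so, against 8.04% of 833. H2-DMb2 pointed upwards there, at 1.82 (0.27 to 3.31), from 18 UMIs in all.

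**Figure D4:**
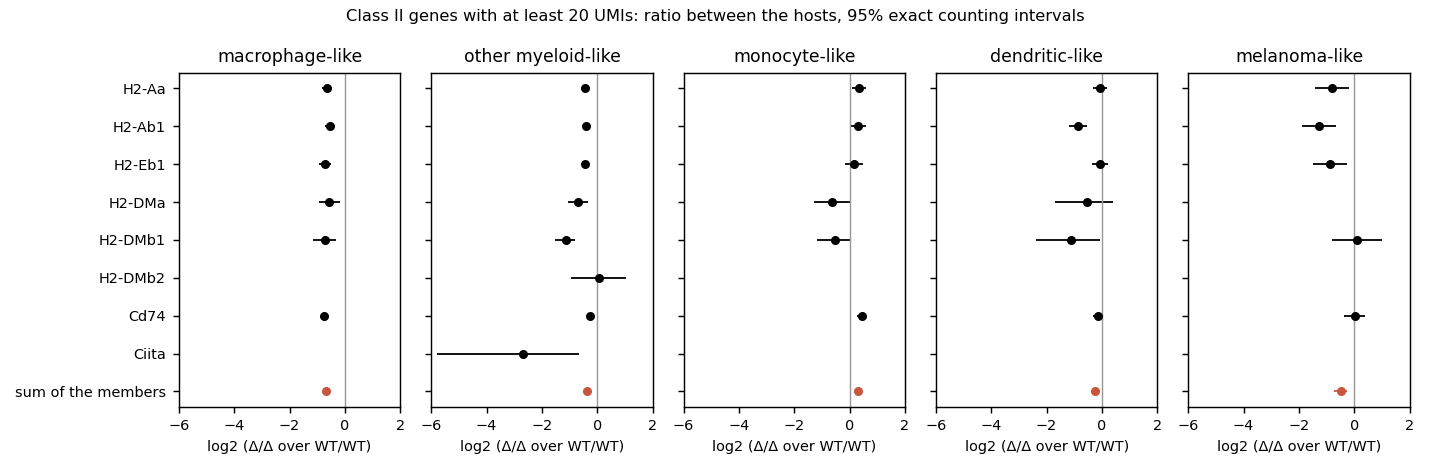
Log2 ratio of Δ/Δ to WT/WT (horizontal axis) for members with at least 20 UMIs, and for their sum in red, in 5 cell classes; bars are 95% exact conditional binomial intervals. The sum lies at −0.70 in macrophage-like and 0.30 in monocyte-like cells.

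In the Δ/Δ library, cells with Xist and cells with Y-linked UMIs differed among monocyte- and other myeloid-like cells. Their intervals overlapped among macrophage-like cells. Of the macrophage-like cells that held Xist but nothing Y-linked, 529 WT/WT cells had 2448 class II CPM and 64 Δ/Δ cells 1358 (1203 to 1528). The 96 Δ/Δ cells with a Y-linked but no Xist UMI had 1180 (1059 to 1310). The macrophage difference was thus −0.85 (−1.03 to −0.67) among Xist cells. Among monocyte-like cells the 109 WT/WT Xist cells had 7107 (6660 to 7577), the 19 Δ/Δ Xist cells 3915 (3223 to 4711) and the 15 Δ/Δ cells with Y-linked UMIs 7803 (6524 to 9260). The monocyte difference was therefore reversed in Xist cells, at −0.86 (−1.16 to −0.58). In other myeloid-like cells the same 3 groups had 14339, 6588 and 14703. Member differences also turned in Xist cells for Ciita in other myeloid-like cells (1.30, −1.13 to 3.12) and H2-DMb1 in dendritic-like cells (1.46, −0.87 to 3.09). The part of host sex in the genotype differences was not tested.

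The class II level of melanoma-like cells was a small percentage of the myeloid level. The class II sum in melanoma-like cells was 0.333% of that in monocyte-, macrophage- and other myeloid-like cells together in WT/WT and 0.354% in Δ/Δ tumours. Myeloid genes gave these percentages: 0.154% and 0.1503% for C1qa, 0.210% and 0.209% for Lyz2, and 0.348% and 0.327% for Fcer1g. Apoe stood apart at 15.7% and 10.4%, from 16679 and 15612 melanoma-like UMIs. By member the percentages ran from 0.241% (Cd74) to 0.589% (H2-DMb1) in WT/WT and from 0.262% (H2-Ab1) to 1.33% (H2-DMb1, 24 UMIs) in Δ/Δ tumours among members with at least 10 UMIs. The level expected from free RNA was 17.8 CPM in WT/WT and 10.7 in Δ/Δ melanoma-like cells, which left 1.97 and 3.33 CPM. The estimate is rough. In WT/WT endothelial-like cells it gave 46.0 CPM where 14.0 was measured, and in Δ/Δ cells 22.3 where 25.7 was measured. The part of attached myeloid cells was not tested. Single cells weighed on the sums, 1 WT/WT cell holding 55 of 371 class II UMIs and 1 Δ/Δ cell 27 of 270. The sum was lower in Δ/Δ melanoma-like cells by 0.50 (−0.73 to −0.27), with H2-Ab1 at −1.27 (−1.90 to −0.68) and Cd74 at 0.01 (−0.36 to 0.37). With the expected free RNA subtracted the difference of the sum turned to 0.76.

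Fibroblast-like cells held H2-Ab1 almost without its partners. Over both libraries they had 79 UMIs of H2-Ab1, 5 of H2-Aa, 10 of Cd74, 6 of H2-DMa, 7 of H2-DMb1, 1 of H2-DMb2 and 0 of H2-Eb1 and Ciita. The class II level expected from free RNA was 57.9 CPM in WT/WT and 26.8 in Δ/Δ fibroblast-like cells, where 62.2 and 73.9 were measured. For H2-Ab1 it was 7.15 and 4.04 UMIs, where 24 and 55 were counted. For H2-Aa it was 7.20 and 4.05, where 4 and 1 were counted, and for Cd74 18.4 and 11.0, where 7 and 3 were. The part of free RNA in the partner counts was not tested. Among fibroblast-like cells with 1 to 3 H2-Ab1 UMIs, 3 of 47 (6.38%, 1.34 to 17.5) also had a UMI of H2-Aa, H2-Eb1 or Cd74. In macrophage-like cells with the same 1 to 3 UMIs, and with fewer UMIs in all (median 2419 against 4690), the count was 177 of 215 (82.3%, 76.6 to 87.2), and in melanoma-like cells 20 of 92 (21.7%, 13.8 to 31.6). In endothelial-like cells it was 0 of 4 (0% to 60.2%), so they cannot be told apart from fibroblast-like cells here. By library H2-Ab1 stood at 33.9 CPM in WT/WT and 63.5 in Δ/Δ fibroblast-like cells, a log2 difference of 0.90 (0.19 to 1.66). The 3 cells with a partner were all among 13 WT/WT cells, and none was among 34 Δ/Δ cells.

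The H2-Ab1 UMIs were concentrated in fibroblast-like cells that expressed hypoxia genes. The cells were split by how many of Bnip3, Slc2a1, Ero1l, Vegfa and Egln3, known targets of the hypoxia response, had a UMI. An H2-Ab1 UMI was present in 1.70% (0.35 to 4.90) of 176 cells with 0 of these genes, in 2.88% (0.60 to 8.20) of 104 with 1, in 11.1% (3.71 to 24.1) of 45 with 2 and in 48.1% (36.5 to 59.7) of 77 with 3 to 5. The H2-Ab1 level was 6.95 CPM (1.89 to 17.8) in the first and 169 (129 to 216) in the last of these groups, while H2-Aa went from 3 UMIs to 0 and Cd74 from 5 to 3. Both libraries showed it, with 50.0% (26.0 to 74.0) of 18 WT/WT and 47.5% (34.3 to 60.9) of 59 Δ/Δ cells in the group with 3 to 5 genes. Within cells with 2 to 5 hypoxia genes the log2 difference of the H2-Ab1 level between the hosts was −0.24 (−1.001 to 0.58). An H2-Ab1 UMI was present in 33.3% of 33 WT/WT and 34.8% of 89 Δ/Δ such cells. Of the fibroblast-like cells, 33 of 186 in WT/WT and 89 of 216 in Δ/Δ tumours had 2 to 5.

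The deeper cells also showed more hypoxia genes, with medians of 3273 UMIs for 0 or 1 and 4561 for 2 to 5. With each cell thinned to 1000 UMIs, H2-Ab1 was present in 0.752% (0.091 to 2.69) of 266 and 11.6% (6.47 to 18.7) of 121 cells. By host, the thinned shares in cells with 2 to 5 hypoxia genes were 27.3% (13.3 to 45.5) of 33 WT/WT and 5.68% (1.87 to 12.8) of 88 Δ/Δ cells, against 0.680% (0.017 to 3.73) and 0.840% (0.021 to 4.59) in cells with 0 or 1. Thinning is a random draw whose spread these intervals do not cover. The gap between the hosts was absent from the unthinned shares above. The unthinned level of H2-Ab1 in cells with 2 to 5 exceeded that in cells with 0 or 1 by 4.60 on the log2 scale (2.85 to 6.99) in WT/WT and 3.01 (1.79 to 4.53) in Δ/Δ tumours. Summed myeloid markers were at 104 CPM in fibroblast-like cells with H2-Ab1 and 66.0 in those without, from 25 and 88 UMIs. The WT/WT cells accounted for that gap, with 185 and 69.1, while Δ/Δ cells had 70.3 and 63.2. In macrophage-like cells H2-Ab1 went from 386 (359 to 415) at 0 to 255 (197 to 326) at 3 to 5 hypoxia genes, and in melanoma-like cells from 4.61 (2.98 to 6.81) to 3.26 (2.34 to 4.43). The share of macrophage-like cells with an H2-Ab1 UMI was 27.0% (23.8 to 30.4) at 0 and 32.5% (22.2 to 44.1) at 3 to 5. Monocyte-like cells went upwards, from 966 CPM and 25.9% of 243 cells at 0 to 1686 CPM and 50.0% of 10 cells at 3 to 5. Of these 10 cells 7 were Δ/Δ, and the 3 WT/WT cells held no H2-Ab1 UMI. The split was made after the H2-Ab1 values were seen, and what lies behind it was not tested.

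**Figure D5:**
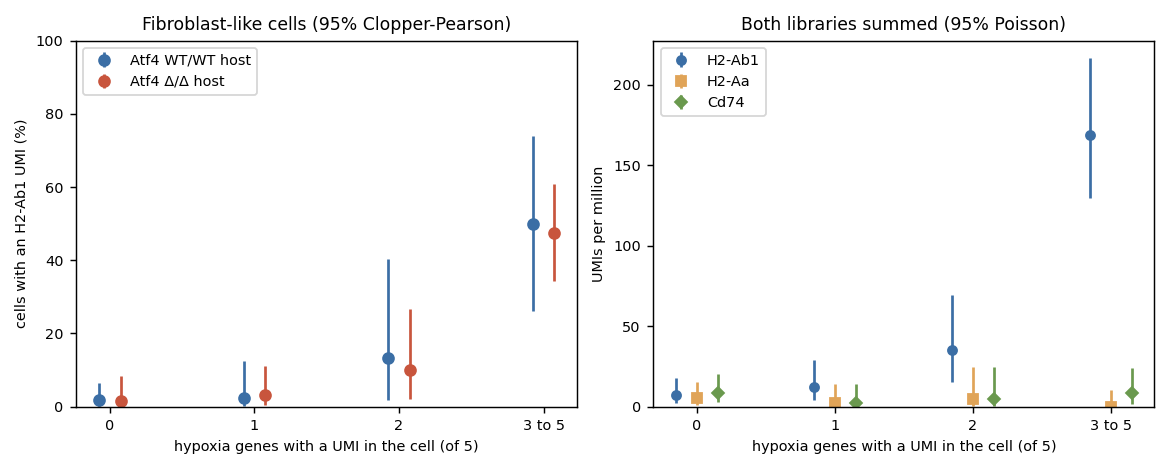
Fibroblast-like cells grouped by how many of 5 hypoxia genes had a UMI (horizontal axes). The left panel gives the share of cells with an H2-Ab1 UMI by host (%, 95% Clopper-Pearson intervals) and the right panel the level of H2-Ab1, H2-Aa and Cd74 over both libraries (CPM, 95% Poisson intervals); the share is 50.0% and 47.5% in the last group, and H2-Aa and Cd74 do not follow H2-Ab1.

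The rest of the pathway was followed with lists. In macrophage-like cells none of 6 measured transcription factors of the class II promoter (RFX, NF-Y and CREB subunits) passed 2-fold, with a median log2 difference of −0.11, and none of 9 genes of the interferon gamma route to Ciita did, with a median of 0.02. Spi1, the myeloid master factor, was at 0.34 (0.19 to 0.49). Of 8 interferon gamma induced GTPases and chemokines 3 passed 2-fold upwards and 1 downwards, where 2.98% and 2.70% of all 8569 genes did, with a list median of 0.61. They were the chemokine Cxcl9 at 2.17 (1.32 to 3.11), Gbp2 at 1.41 (0.73 to 2.11), Gbp7 at 1.12 (0.52 to 1.73) and, in the direction of the class II sum, Irgm1 at −1.01 (−1.76 to −0.31). In other classes Cxcl9 went downwards, at −2.11 (−2.93 to −1.36) in fibroblast-like and −3.62 (−8.99 to −0.96, 1 Δ/Δ UMI) in monocyte-like cells.

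None of 7 proteases and related genes that process the invariant chain passed 2-fold, Ctsb lying at 0.01 (−0.03 to 0.05) and Ctsl at −0.38 (−0.45 to −0.31), with a list median of −0.05. None of 3 genes of class II turnover did either. March1, the ligase that marks class II for degradation, was at 0.91 (0.13 to 1.70), and Cd83, which opposes it, at −0.68 (−0.94 to −0.42), with a list median of 0.28. None of 4 costimulatory genes passed, with Cd86 at 0.06 (−0.28 to 0.39), Cd40 at 0.66 (0.04 to 1.29) and a list median of 0.03. For class I presentation 0 of 9 passed and 8 were below 0, as were 4317 of the 8569 genes, with a median of −0.27, H2-D1 at −0.40 (−0.48 to −0.32) and B2m at −0.25 (−0.32 to −0.18). H2-Ob, H2-Oa and H2-Eb2, class II chains outside the members, did not reach 20 UMIs.

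In fibroblast-like cells, where H2-Ab1 was higher in Δ/Δ tumours, 2 of 7 measured class I genes passed 2-fold downwards, against 5.69% of 7117 genes. They were the peptide transporter subunit Tap2 at −1.62 (−2.84 to −0.51) and the immunoproteasome subunit Psmb8 at −1.54 (−2.20 to −0.90), named after their values were seen. The list median there was −0.63.

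Across 13 combinations of class and library with at least 20 cells, the genes whose log2 level was most like that of the summed members among 9810 genes were Tnip3, Rel, Samsn1, Bcl2a1d, Plbd1, Cd52, Cytip, Cd83, Malt1 and Clec4b1, with Pearson correlations from 0.986 to 0.971. Among the members themselves H2-DMb1 reached 0.989, H2-Aa 0.987, H2-DMb2 0.900 and Ciita 0.798. The 13 points share 2 libraries and differ in depth, and all 10 genes were higher in each myeloid and dendritic class than in fibroblast-, endothelial- or melanoma-like cells. Tnip3 had 198 CPM in WT/WT dendritic-like cells, 156 in other myeloid-, 56.5 in macrophage- and 0 in fibroblast-like cells.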

How the data were processed

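Single-cell libraries of small B16F10 tumours were read as deposited: raw UMI counts per gene and cell barcode, which the authors made with Cell Ranger 3.1.0 against GRCm38 with Ensembl annotation (the submitters' notes also name Seurat 3.2.1; the labels and methods differ on the kit version). Such counts depend on depth and on free RNA in the droplets. The study's filter was applied: 200 to 5000 detected genes, mitochondrial share up to 7.5%. Classes were gated on how many listed markers had a UMI (Python 3.11.15, scipy 1.17.1); the thresholds were set after marker counts, but not class II values, were seen. The members and lists were chosen with earlier results of these data known. For each class, UMIs of a library were added up and divided by the class total (CPM). Intervals are exact (Poisson, Clopper-Pearson, conditional binomial) and were checked on simulated data; a count of 0 was set to 3 for fold changes. No test was possible with 1 library per genotype. Named genes were all 8 members, at most 4 per list (those with the most UMIs in macrophage-like cells; Tap2 in fibroblast-like cells was added after its values were seen), Atf4, and the 10 genes most like the sum, among those with 200 UMIs. Doublets were not removed; Scrublet (scanpy 1.11.5) called 114 and 50 cells. Alternatives covered the filters, doublets, gates, scaling, host sex, free RNA and thinning.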

Additional observations from a re-analysis of the deposited data

Results flagged for a closer look

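The difference between the hosts took opposite signs in cell classes and in states with at least 20 cells per library, each from 1 library per genotype, and the difference between these differences was not tested. Class II was higher in Δ/Δ monocyte-like cells (log2 0.30) and lower in macrophage- (−0.70), other myeloid- (−0.37) and melanoma-like cells (−0.50). Among the states it was higher in Il1b Cxcl2 inflammatory cells (0.15) and lower in resident (−0.99), Vcam1 Fcrls C1q-high (−1.14), Arg1 hypoxic (−0.46) and interferon-response cells (−0.83). Some of these signs turned under other settings. The monocyte value was −0.085 with 1 more marker required and −0.86 in cells that held Xist but nothing Y-linked. The melanoma value was 0.76 with free RNA subtracted. In Xist cells inflammatory cells were at −1.28 and interferon-response cells at 1.55.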

How the results depend on the processing

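No paired analysis was possible because there was 1 library for each host genotype. Of 50 recomputed values that answer the comparisons, 36 stayed within the interval of the value reported, 11 lay outside it and 3 changed sign. With 1 more marker required, the class II difference was −1.01 in macrophage-, −0.37 in dendritic- and −0.085 in monocyte-like cells, and the WT/WT macrophage share 11.0%. In cells that held Xist but nothing Y-linked it was −0.85 in macrophage- and −0.86 in monocyte-like cells. With free RNA subtracted it was 3.43 in fibroblast- and 0.76 in melanoma-like cells. The class II level left was 4.38 CPM in WT/WT and 47.0 in Δ/Δ fibroblast-like cells, and 1.97 and 3.33 in melanoma-like cells. The macrophage share (WT/WT, then Δ/Δ) was 20.9% and 13.6% without thinning, 21.7% and 7.27% at 5 UMIs, and 7.71% and 2.34% at 20. No endothelial ratio was given, as both counts were at or under 3.

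Of 260 other recomputed values 220 stayed within the interval, 31 moved and 9 changed sign where the interval had left out 0. A further 6 values changed sign where it had held 0: H2-DMb1 in melanoma-like cells (−0.043, 15% mitochondrial limit), H2-Eb1 in monocyte-like cells (−0.99 with 1 more marker, −2.30 in Xist cells) and, in Xist cells, H2-Aa (0.72) and H2-DMa (1.75) in dendritic- and H2-DMb2 (−0.28) in other myeloid-like cells. With 1 more marker, H2-Aa and H2-Ab1 in monocyte-like cells were at −0.081 and −0.055. In Xist cells H2-Aa, H2-Ab1 and Cd74 in monocyte-like cells were at −1.02, −1.04 and −0.45, H2-DMb1 in dendritic-like cells at 1.46 (1 Δ/Δ cell), Ciita in other myeloid-like cells at 1.30, inflammatory cells at −1.28 and interferon-response cells at 1.55. The causes were not tested. The split of H2-Ab1 by hypoxia genes kept its sign under the 6 alternatives run, at 6.16 in Xist cells and 3.68 to 3.83 otherwise. Alternatives for single members, states and this split were chosen after seeing the data. Low counts limit Ciita, H2-DMb2 and the endothelial- and dendritic-like cells.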

Other observations

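Among other myeloid-like cells, 243 held at least 20 class II UMIs and 291 held at most 2. Genes far higher in the first group, chosen after their values were seen, included Retnla with 890 UMIs against 0, Mgl2 with 100 against 3, Cd209a with 58 against 0 and Lyz1 with 428 against 21. The haemoglobin genes Hbb-bt (65 against 6) and Hba-a2 (54 against 9) were among them too. Their UMIs in the first group came from only 5 and 2 cells, all WT/WT. Of these high cells 171 were WT/WT and 72 Δ/Δ. Cd209a was found in 27 of the WT/WT and 1 of the Δ/Δ cells, and Mgl2 in 36 and 6. Retnla had 2200 CPM (UMIs per 1000000) in the WT/WT and 1494 in the Δ/Δ high cells, but only 41 and 6 cells held a UMI of it. Other genes of the high group stood higher in the Δ/Δ high cells: Ccl17 had 54.5 CPM in WT/WT and 257 in Δ/Δ cells, Ifitm1 224 and 889, and AA467197 160.4 and 339. These values too came from few cells. Ccl17 was found in 6 WT/WT and 4 Δ/Δ cells, Ifitm1 in 13 and 15, and AA467197 in 21 and 13.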
